A study of Rattus norvegicus with 6 samples.

Results

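The S100 genes encode a family of small calcium-binding proteins, and their mRNA levels were examined here in primary rat chondrocytes with and without retinoic acid (RA). The members were 10 S100 genes chosen by name, among them the chondrocyte markers S100a1 and S100b, and 8 of these 10 matched a gene name among the 18923 genes of the expression tables. S100a8 and S100a9, which encode the subunits of the neutrophil protein calprotectin, matched no gene name and were not analysed here. The cells came from cartilage of 24 h old female Sprague-Dawley rats, wild type by label, and were used at passage 1 or 2. In the CON group (n = 3) they were kept in high-glucose DMEM with 10% FBS and penicillin-streptomycin, with no vehicle named, and in the RA group (n = 3) 1 µM all-trans RA was added to that medium for 24 h. RNA-Seq of poly(A) RNA gave reads counted per gene and FPKM values, in which a count is scaled by gene length and sequencing depth.

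S100 proteins carry a pair of EF-hand calcium-binding loops, form dimers and, once calcium is bound, expose a surface to which target proteins attach. Most act inside the cell on the cytoskeleton, on membranes through annexins, or on kinases and transcription factors, and some are released and bind receptors such as Ager (RAGE) and Tlr4. In cartilage, staining for S100 protein is a classical mark of chondrocytes, and S100a1 and S100b are known targets of the SOX trio (Sox5, Sox6 and Sox9), the transcription factors of the chondrocyte lineage. In the RefSeq gene order of the rat assembly GRCr8, the S100a members lie on the same chromosome. S100a1 is next to S100a13, and S100a11 is next to S100a10. S100b lies on another chromosome. The identifiers in the tables are ENSRNOG00000001295 for S100b, ENSRNOG00000012410 for S100a1, ENSRNOG00000011821 for S100a4 and ENSRNOG00000023226 for S100a10.

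The stretches before the start sites of S100b, the member with the largest change, and of S100a4, the most abundant member among those that passed the test in the upward direction, are shown because these members moved in opposite directions. They are RefSeq sequence of GRCr8, written 5′ to 3′ on the gene's strand, in lower case with motif matches in capitals on either strand. The motifs searched were AGGTCA, the core bound by retinoid and other nuclear receptors, then ACAAT, a core of SOX motifs, then the AP-1 motif TGACTCA, and the TATA box TATAAA. The motif ACAAT reads ATTGT where it lies on the other strand.
S100b, chr20:12381160-12381331, minus strand: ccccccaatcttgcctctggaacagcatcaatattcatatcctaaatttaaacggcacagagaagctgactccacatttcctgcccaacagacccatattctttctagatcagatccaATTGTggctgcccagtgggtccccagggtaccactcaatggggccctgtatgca
S100a4, chr2:178388279-178388528, plus strand: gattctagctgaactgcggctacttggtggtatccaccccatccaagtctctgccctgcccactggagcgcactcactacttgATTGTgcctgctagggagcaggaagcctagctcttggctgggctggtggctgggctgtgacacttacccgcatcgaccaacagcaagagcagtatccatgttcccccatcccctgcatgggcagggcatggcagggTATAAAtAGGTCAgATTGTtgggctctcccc

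The S100a4 stretch ends at the base before its start site. In it the TATAAA match began 31 bases before the start, an AGGTCA match 24 bases before it and ACAAT matches 17 and 167 bases before it, with no overlap between matches. The S100b stretch is the 172 bases of the 250-base window that lie outside the annotated span of the gene, since the other 78 bases fall within it. Its match, to ACAAT, began 132 bases before the start site, and the other motifs had no match in the whole window. Of the 33469 windows of the same length in the RefSeq table, 14.1% held AGGTCA, 30.0% ACAAT, 4.05% TGACTCA and 12.9% TATAAA. Of the 8 members, 6 had an entry, and S100a6, S100a11, S100a13 and S100a16 had no match to any of these motifs. A direct repeat, 2 AGGTCA copies with 5 bases between them, was searched as well. It had no match in any of the 6 members with an entry, and was found in 3 of the 33469 windows. The S100a6 window lies wholly, with all 250 bases, inside the annotated span of its gene, so it is not upstream sequence as the others are. S100a1 and S100a10 had no entry. A match describes letters and is not a measured binding site.

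Total counts ran from 30170909 to 38007486 in CON and from 29370025 to 30952882 in RA. Genes were tested with edgeR's quasi-likelihood test on the counts. A gene passed the test at a Benjamini-Hochberg adjusted p below 0.05 over the 13438 genes tested, and it was called a DEG where its log2 fold change (RA over CON) was also beyond 0.58 in either direction. CON sample 1 correlated with the other CON samples at r = 0.983 and 0.985 over log2 CPM. The values were 0.992 between CON samples 2 and 3 and 0.991 between RA samples. CPM are counts scaled to the sample's total, which for log2 CPM was adjusted by TMM. The cells carried the label's markers: all 12 chondrocyte markers listed, S100a1 and S100b included, passed the filter on low counts, with a summed level of 8370 to 10221 FPKM in CON and 5223 to 5556 in RA.

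All 8 members passed the filter on low counts. The data showed 1 clear fall, that of S100b, and small rises of S100a4 and S100a10. By the DEG rule 1 of 8 members was called, against 4.96% of all genes tested, and it was lower in RA, against 2.29%. By adjusted p alone 3 of 8 passed, against 9.82%, of which 2 were higher, against 5.31%, and 1 lower, against 4.5%. With 1 sample left out, the number that passed ran from 1 to 5. In 4 members every RA sample lay above every CON sample, against 16.8% of the genes tested, and in 2 every RA sample lay below, against 15.1%. The median log2 fold change of the 8 members was 0.16, beside -0.0057 over all genes tested.

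S100b, which encodes a calcium sensor protein of chondrocytes and glia, was the member that fell. Its level was 325, 281 and 276 FPKM in CON samples 1, 2 and 3 and 175, 179 and 186 FPKM in RA samples 1, 2 and 3. The highest RA sample stood well under the lowest CON sample, so the groups did not overlap. The mean went from 294 ± 27.1 to 180.0 ± 5.34 FPKM (mean ± SD, n = 3 each), with log2 fold change -0.72 (SE 0.073; adjusted p = 5.71e-04, edgeR). This is 0.607 times the CON level, with a 95% interval from 0.541 to 0.682. The change was larger in size than that of 92.7% of the genes tested. With any 1 of the 6 samples removed S100b was still a DEG, at log2 fold changes from -0.76 to -0.65. In bulk RNA, fewer cells of a type and less RNA per cell cannot be told apart.

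S100b is also a gene of Schwann cells and glia, and 7 markers of those cells were measured beside it. Their summed level was 4.46 to 4.95 FPKM in CON and 2.01 to 2.44 FPKM in RA, lower in every RA sample, against 276 FPKM of S100b in the lowest CON sample. The largest share was that of Gfap, an intermediate filament gene of glia, which went from 3.07 ± 0.175 to 1.43 ± 0.203 FPKM (SD, n = 3 each) and was the DEG among the 4 markers tested. By DESeq2 2 of these 4 passed, both lower. The lineage factor Sox10 averaged 0.00579 FPKM in CON and was listed at 0 in RA. The lists of monocytes, macrophages and neutrophils, of skeletal muscle and of endothelium were low in level. The list of fibroblasts and perichondrium was not, at a sum of 3852 to 5032 FPKM in CON, and is given beside S100a4. Of 15 monocyte, macrophage and neutrophil markers measured, 14 stayed below 1 FPKM in every sample, with a sum of 1.82 to 2.05 FPKM in CON and 1.92 to 2.21 in RA, and 0 of the 3 tested passed (edgeR, unadjusted p under 0.05 in 0, and 0 by DESeq2). Skeletal muscle markers summed to 9.13 to 10.8 FPKM in CON and 8.55 to 10.6 in RA, and Tnnt3, at a mean of 4.71 in CON and 2.36 in RA, was the DEG among 2 tested. The other, Des, a muscle intermediate filament gene, was above CON in every RA sample, at 5.09 ± 0.616 FPKM in CON against 6.72 ± 0.387 FPKM in RA (SD, n = 3 each), and did not pass by edgeR (log2 fold change 0.39, adjusted p = 0.0766). By DESeq2 both passed, 1 higher and 1 lower. Endothelial markers summed to 5.46 to 8.02 FPKM in CON and 6.18 to 6.83 in RA, with no count of Emcn in any sample, which allows up to 0.0789 to 0.102 CPM by counting error alone, and 0 of 2 tested passed (unadjusted p under 0.05 in 0, and 0 by DESeq2).

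S100a1, the other S100 marker of chondrocytes and a modulator of calcium handling in muscle, did not pass the test. It stood at 15.2, 14.2 and 17.9 FPKM in the CON samples and at 13.7, 13.02 and 13.04 FPKM in the RA samples. All 3 RA samples lay below the CON samples, but the gap to CON sample 2 was narrow. Its log2 fold change was -0.27 with a 95% interval from -0.61 to 0.081 (adjusted p = 0.33, edgeR). A fall to 0.653 times the CON level and a rise to 1.06 times are thus both within the interval. The counts behind it were 109 to 194 reads per sample, against 7714 to 15570 for S100b.

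The ratio of S100b to S100a1 within a sample, in FPKM, was 21.4, 19.8 and 15.4 in CON and 12.8, 13.8 and 14.2 in RA. The groups did not overlap, and the ratio was lower in every RA sample. An exact two-sided permutation test of this ratio gave p = 0.1, the smallest that 3 samples against 3 allow. It was 1 of 4 ratios examined, chosen after the levels were seen, and each had the same p, which adjustment over the 4 leaves at 0.1.

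**Figure D1:**
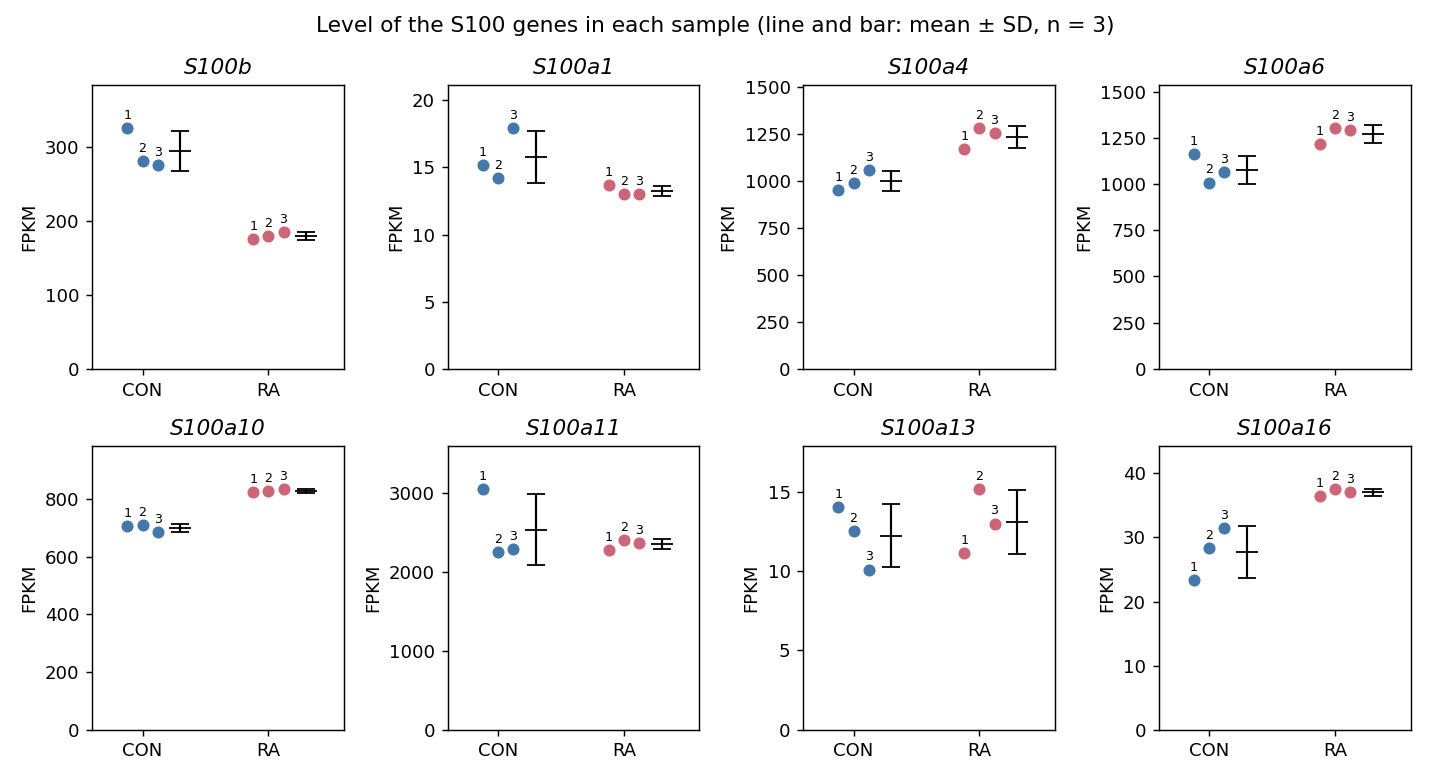
Level of the 8 measured S100 genes in FPKM (vertical axes, each starting at 0) in the 3 CON and 3 RA samples. Points are samples with their number, and the line and bar beside them are the mean and SD; S100b lies at 276 to 325 FPKM in CON and at 175 to 186 in RA, while S100a11 and S100a13 overlap between the groups.

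S100b and S100a1 were set beside the other chondrocyte markers in the list of 12, and the counts and median given here include both. Of the 12, 11 passed the test, all lower in RA, and 10 of them were DEGs; the median log2 fold change was -0.82. Ordered by the size of the fall, S100b was number 8 of the 12 and S100a1 number 12. The neighbours of S100b in that order were Col2a1, the gene of type II collagen (-0.78), and Comp, which encodes a cartilage matrix protein (-0.64). The largest fall was that of Matn3, a matrilin gene (-1.65). These lists were drawn up with earlier results of these data known.

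The SOX trio was lower in RA as well. Sox5 went from 6.34 ± 0.0863 to 4.50 ± 0.299 FPKM (mean ± SD, n = 3 each), with log2 fold change -0.51 (adjusted p = 0.00567, edgeR). Sox6 went from 6.96 ± 0.222 to 4.61 ± 0.448 FPKM (mean ± SD, n = 3 each), with log2 fold change -0.61, past the DEG threshold (adjusted p = 0.00541, edgeR), and was under that threshold, at -0.52, without RA sample 1. Sox9 went from 33.4 ± 2.77 to 24.0 ± 0.895 FPKM (mean ± SD, n = 3 each), with log2 fold change -0.49 (adjusted p = 0.00608, edgeR). All 3 passed the test, and 1 of 3 was a DEG.

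Among all genes tested, the 3 genes whose log2 CPM ran most like that of S100b over the 6 samples were Fzd4, a Wnt receptor gene, Cthrc1, which encodes a secreted matrix protein, and Lxn, which encodes a carboxypeptidase inhibitor. Their Pearson correlations with S100b were 0.9975, 0.9974 and 0.9972. The points are 3 CON and 3 RA samples, shared by every gene, so these values are a description. Their log2 fold changes were -0.44, -0.54 and -0.42.

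S100a4, S100a6, S100a10 and S100a16 were the members whose RA samples all lay above their CON samples. S100a4, also named fibroblast-specific protein and known for binding non-muscle myosin and for cell motility, had 954, 988 and 1057 FPKM in CON and 1169, 1282 and 1257 FPKM in RA. No sample of the groups overlapped. The mean rose from 999.6 ± 52.5 to 1236 ± 59.1 FPKM (mean ± SD, n = 3 each), with log2 fold change 0.29 (SE 0.0664, 95% interval 0.14 to 0.45, adjusted p = 0.0271, edgeR). It missed the threshold once CON sample 2 (0.28) was removed, and likewise with RA samples 2 (0.26) or 3 (0.28) removed, where the adjusted p ran from 0.115 to 0.142 (range over all alternatives 0.00369 to 0.142).

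Markers of fibroblasts and perichondrium, cells in which S100a4 is also high, are given beside it. Of 9 tested, 3 passed upward and 2 downward, and the median log2 fold change was 0.13. Prrx1 (0.49), Pdgfra (0.44) and Twist1 (0.43), genes of mesenchymal progenitors and fibroblasts, were the 3 that rose, and Dcn (-0.41) and Postn (-1.28) fell; they were named after their values were seen. The summed level of the list was 3852 to 5032 FPKM in CON and 4983 to 5230.0 FPKM in RA, and overlapped. Whether these cells had a part in the rise of S100a4 was not tested.

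S100a10, known as p11, does not bind calcium and pairs with annexin A2 at the plasma membrane. Its level was 704, 709 and 684 FPKM in CON and 823, 825 and 834 FPKM in RA. It had the smallest spread of the members relative to its level in both groups, and the groups stood apart. From 699 ± 13.6 to 827 ± 5.94 FPKM (SD, n = 3 each), it rose by a log2 fold change of 0.23 (SE 0.049, 95% interval 0.12 to 0.34, adjusted p = 0.0209, edgeR), or to 1.17 times the CON level. The fold change moved little, between 0.22 and 0.24, when samples were left out. It did not pass on removing CON sample 2 or any of the RA samples (adjusted p from 0.0792 to 0.126, range over all alternatives 0.00199 to 0.126). GRCr8 holds 1 annotated pseudogene copy of S100a10, and how reads shared with copies were assigned is not given in the sources used here, so its counts carry that uncertainty.

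Anxa2, the gene of the annexin that pairs with S100a10, also rose. It went from 943 ± 39.7 to 1332 ± 7.45 FPKM (mean ± SD, n = 3 each), with log2 fold change 0.48 (adjusted p = 5.37e-04, edgeR). The ratio of Anxa2 to S100a10 within a sample, in FPKM, was 1.40, 1.31 and 1.34 in CON and 1.61, 1.61 and 1.61 in RA. The groups did not overlap (exact two-sided permutation test p = 0.1, the smallest possible, chosen after the levels were seen). Ahnak, which encodes a giant scaffold protein bound by the S100a10 and annexin A2 complex, had a log2 difference of 0.24 (adjusted p = 0.183, edgeR), and passed at 0.33 without CON sample 3 (adjusted p = 0.0487).

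S100a6, or calcyclin, which rises in dividing cells and binds annexins and Cacybp, had 1160.0, 1008 and 1063 FPKM in CON and 1217, 1301 and 1294 FPKM in RA. Every RA sample was above CON, by a narrow margin over CON sample 1. The log2 fold change of 0.23 (95% interval 0.072 to 0.38) missed the threshold at an adjusted p of 0.0776 (edgeR). Without CON sample 1 it was 0.28 and passed (adjusted p = 0.00254, with 0.00254 to 0.275 across the alternatives). S100a16, a broadly expressed member, stood at 23.4, 28.3 and 31.5 FPKM in CON and at 36.4, 37.6 and 37.1 FPKM in RA. Its log2 fold change of 0.40 (95% interval 0.15 to 0.65) was the highest of the 8, and its adjusted p of 0.0551 lay just above the threshold. The CON samples of S100a16 varied more than the RA samples, with SDs of 4.07 and 0.584 FPKM. Without CON sample 1 the fold change was 0.29 and without CON sample 3 it was 0.51, and both fits passed (adjusted p = 0.0104 and 0.0142, range over all alternatives 0.0104 to 0.185). In all, S100a16 passed in 7 of 14 fits.

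**Figure D2:**
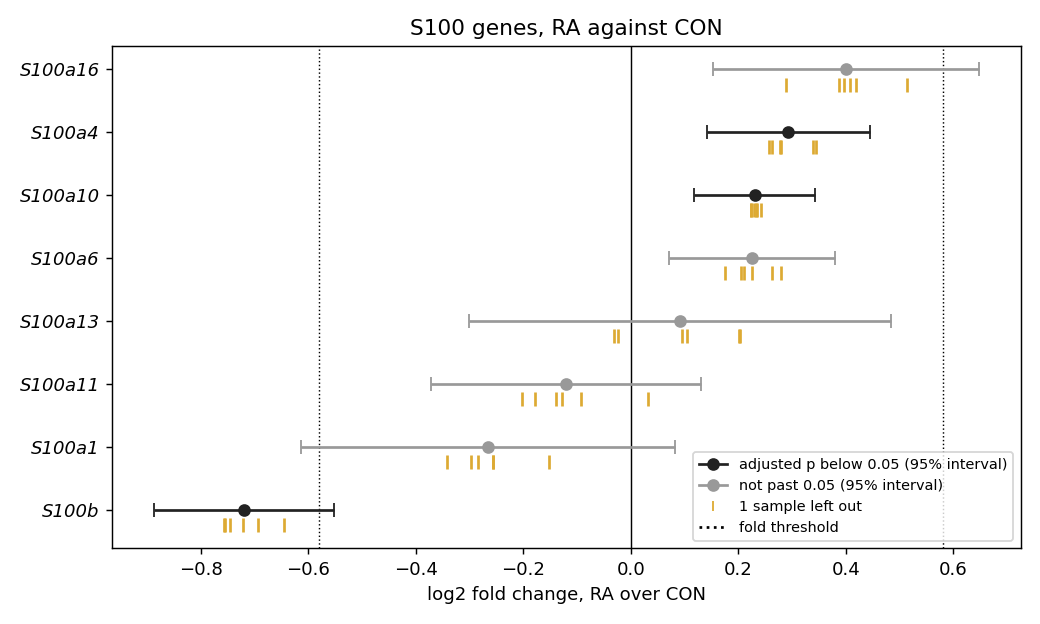
Log2 fold change of the 8 S100 genes, RA over CON (horizontal axis), with 95% intervals from edgeR's quasi-likelihood fit; black genes had an adjusted p below 0.05, grey genes did not, and the dotted lines mark the DEG threshold of 0.58. Yellow ticks are the fits that each left out 1 of the 6 samples; S100b lies at -0.72 with ticks from -0.76 to -0.65, and the ticks of S100a11 and S100a13 fall on both sides of 0.

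S100a11, or calgizzarin, which binds annexin A1 and is known to act on chondrocyte hypertrophy when released, was the most abundant member. It had 3049.5, 2252 and 2291 FPKM in CON and 2278, 2397 and 2369 FPKM in RA. CON sample 1 stood above all others, and the remaining 5 samples lay close together. The log2 fold change was -0.12 (95% interval -0.37 to 0.13, adjusted p = 0.55, edgeR), and 0.032 without CON sample 1. GRCr8 holds 7 annotated copies of S100a11, 5 of them pseudogenes, and none has a row of its own in the tables, so its counts are uncertain. Anxa1, its annexin partner, stood at 0.10 on the log2 fold change scale (adjusted p = 0.594, edgeR).

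S100a13, which takes part in the release of Fgf1 and interleukin 1 alpha by a route outside the secretory pathway, was the lowest member in CON. Its level was 14.1, 12.5 and 10.1 FPKM in CON and 11.1, 15.2 and 13.02 FPKM in RA, and the groups overlapped. The log2 fold change was 0.092 with a 95% interval from -0.30 to 0.48 (adjusted p = 0.786, edgeR), and it turned to -0.023 without CON sample 3 and -0.031 without RA sample 2. Its cargo gene Fgf1 was a DEG at a low level, from 0.264 ± 0.0409 to 0.516 ± 0.0925 FPKM (mean ± SD, n = 3 each), with log2 fold change 0.94 (adjusted p = 0.0378, edgeR). Fgf1 lost its call on removing CON sample 2 (0.90) or any of the 3 RA samples (0.83, 1.07 and 0.92), with adjusted p up to 0.145. It also did not pass in limma, at 0.75 on log2(FPKM + 0.1) and 0.26 on log2(FPKM + 1) (adjusted p = 0.0539 and 0.0550).

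Levels of different members were compared in FPKM, that is, per length. The deposited lengths of the members ran from 285 bases for S100a1 and 297 for S100a11 to 1484 for S100b, and the order of levels depends on them. In CON the order was S100a11 (2531 FPKM), S100a6 (1077), S100a4 (999.6), S100a10 (699), S100b (294), S100a16 (27.8), S100a1 (15.8) and S100a13 (12.2). In this order S100a6 and S100a4 overlapped in both groups, and S100a1 and S100a13 overlapped in RA, at 13.3 and 13.1 FPKM. All other neighbours were apart in every sample of a group. The order in RA was the same, and the step from S100a10 down to S100b was 2.38-fold in CON and 4.59-fold in RA.

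Together the 8 members took 0.279 ± 0.0183% of all counts in CON against 0.290 ± 0.00882% in RA (SD, n = 3 each), and the groups overlapped. Of the summed FPKM of the members, S100b made up 5.20 ± 0.113% in CON against 3.04 ± 0.0676% in RA (SD, n = 3 each). S100a4 made up 17.8 ± 2.22% and 20.8 ± 0.384%, and S100a11 44.5 ± 3.74% and 39.6 ± 0.174%. The ratio of S100a4 to S100b within a sample, in FPKM, was 2.93, 3.52 and 3.83 in CON and 6.68, 7.15 and 6.77 in RA. The RA mean was 2.00 times the CON mean, with no overlap between the groups (exact two-sided permutation test p = 0.1, the smallest possible, chosen after the levels were seen). The ratio of S100a10 to S100a11 was 0.231, 0.315 and 0.298 in CON and 0.361, 0.344 and 0.352 in RA, with the same p.

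**Figure D3:**
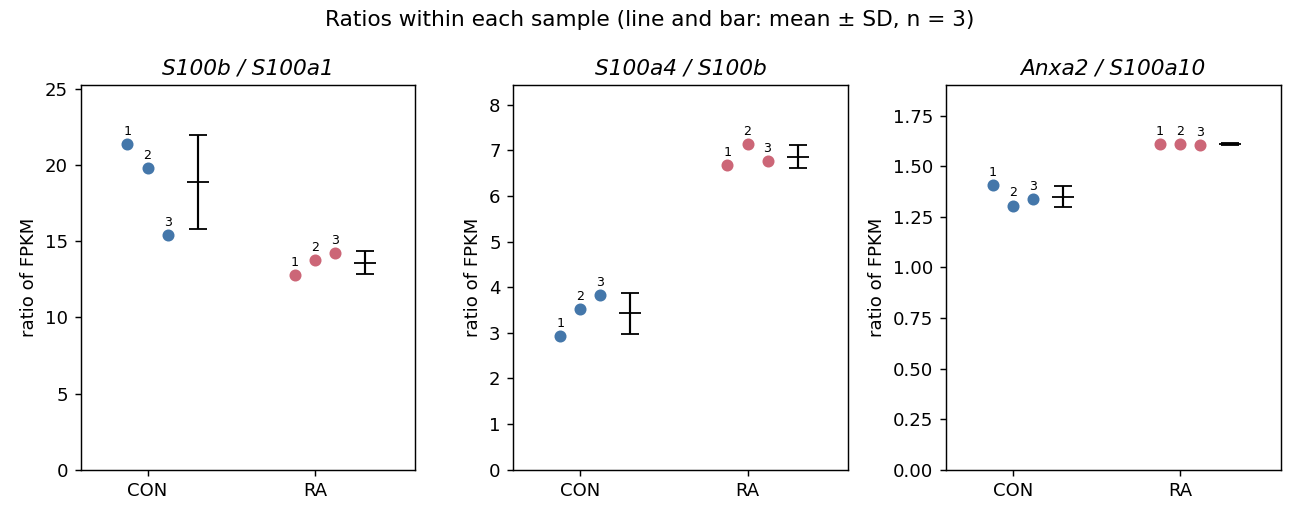
Ratios of FPKM between pairs of genes within each sample (vertical axes, from 0) for CON and RA. Points are samples with their number, and the line and bar are the mean and SD; S100b over S100a1 is 15.4 to 21.4 in CON and 12.8 to 14.2 in RA, S100a4 over S100b 2.93 to 3.83 and 6.68 to 7.15, and Anxa2 over S100a10 1.31 to 1.40 and 1.61 in each RA sample.

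Of 11 further S100 family symbols listed, 5 were measured and the others were not analysed here. S100a3 was tested, at 45 to 75 reads per sample, with 1.71 ± 0.105 FPKM in CON against 2.36 ± 0.204 FPKM in RA (mean ± SD, n = 3 each), and did not pass, with log2 fold change 0.45 (adjusted p = 0.185, edgeR). S100a5, S100a7a, S100g and S100z stayed below 1 FPKM in every sample and below the filter on low counts.

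Among 22 annexins and intracellular partners of S100 proteins, 19 were tested and 2 passed, Anxa2 and Fgf1, both higher. The median log2 fold change was 0.090. Cacybp, which binds S100a6, had -0.26 (adjusted p = 0.243, edgeR), and Atp2a2, a calcium pump gene whose product is a partner of S100a1, had 0.20 (adjusted p = 0.0521, edgeR). Atp2a2 passed in 5 of 14 fits, by DESeq2 (adjusted p = 0.0222), with library totals (0.0350), in both limma fits (0.0393 and 0.0369) and without CON sample 1 (0.0139). Myh9, the non-muscle myosin bound by S100a4, averaged 0.0356 FPKM in CON and 0.0302 in RA, below the filter, a level that is low for a gene used by most cells.

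Of 8 receptors of extracellular S100 proteins and their adaptors, 6 were tested and 0 passed by edgeR or by DESeq2, with 1, Cd14, at an unadjusted p under 0.05 and a median log2 fold change of 0.042. Ager, the receptor of several S100 proteins, stood at 0.756 ± 0.210 FPKM in CON against 0.748 ± 0.0689 FPKM in RA (mean ± SD, n = 3 each). Tlr4 was at 4.54 ± 1.02 and 4.71 ± 0.0963 FPKM, and its adaptor Myd88 at 12.2 ± 0.938 and 12.3 ± 0.860 FPKM. Bsg (basigin) was the most abundant, at 341 ± 21.3 and 354 ± 8.95 FPKM. The log2 fold changes of Ager, Bsg, Cd14, Alcam, Tlr4 and Myd88 were -0.037, 0.039, 0.23, 0.19, 0.044 and 0.0013. Those of Ager, Bsg, Tlr4 and Myd88 changed sign in at least 1 fit that left out a sample. Without CON sample 1 Alcam passed, at 0.28 (adjusted p = 0.00621 by edgeR, with 0.00621 to 0.485 across the alternatives).

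Among 27 other EF-hand genes, 20 were tested by edgeR, 0 passed upward (2 at an unadjusted p under 0.05, and 1 by DESeq2) and 4 downward (6 by DESeq2), and the median log2 fold change was -0.0059. The DEG was Vsnl1, which encodes a neuronal calcium sensor, at 0.396 ± 0.148 FPKM in CON against 0.0867 ± 0.0318 FPKM in RA (mean ± SD, n = 3 each), with log2 fold change -2.17 (adjusted p = 0.0176, edgeR). Its call was lost on removing CON sample 2 (-1.84) and on removing either RA sample 1 (-2.03) or RA sample 3 (-2.02). The other 3, named after their values were seen, were Calu (-0.30), Rcn1 (-0.26) and Nucb2 (-0.42), while their relatives Rcn2 (-0.28), Rcn3 (-0.32) and Nucb1 (0.21) did not pass. Of 14 fits run, Calu passed in 7, Rcn1 in 10 and Nucb2 in 11. Calu and Rcn1 did not pass without CON sample 2 or any 1 RA sample, and Nucb2 not without any 1 RA sample. Calu also did not pass with library totals or in either limma fit (adjusted p = 0.0606, 0.1002 and 0.104).

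**Figure D4:**
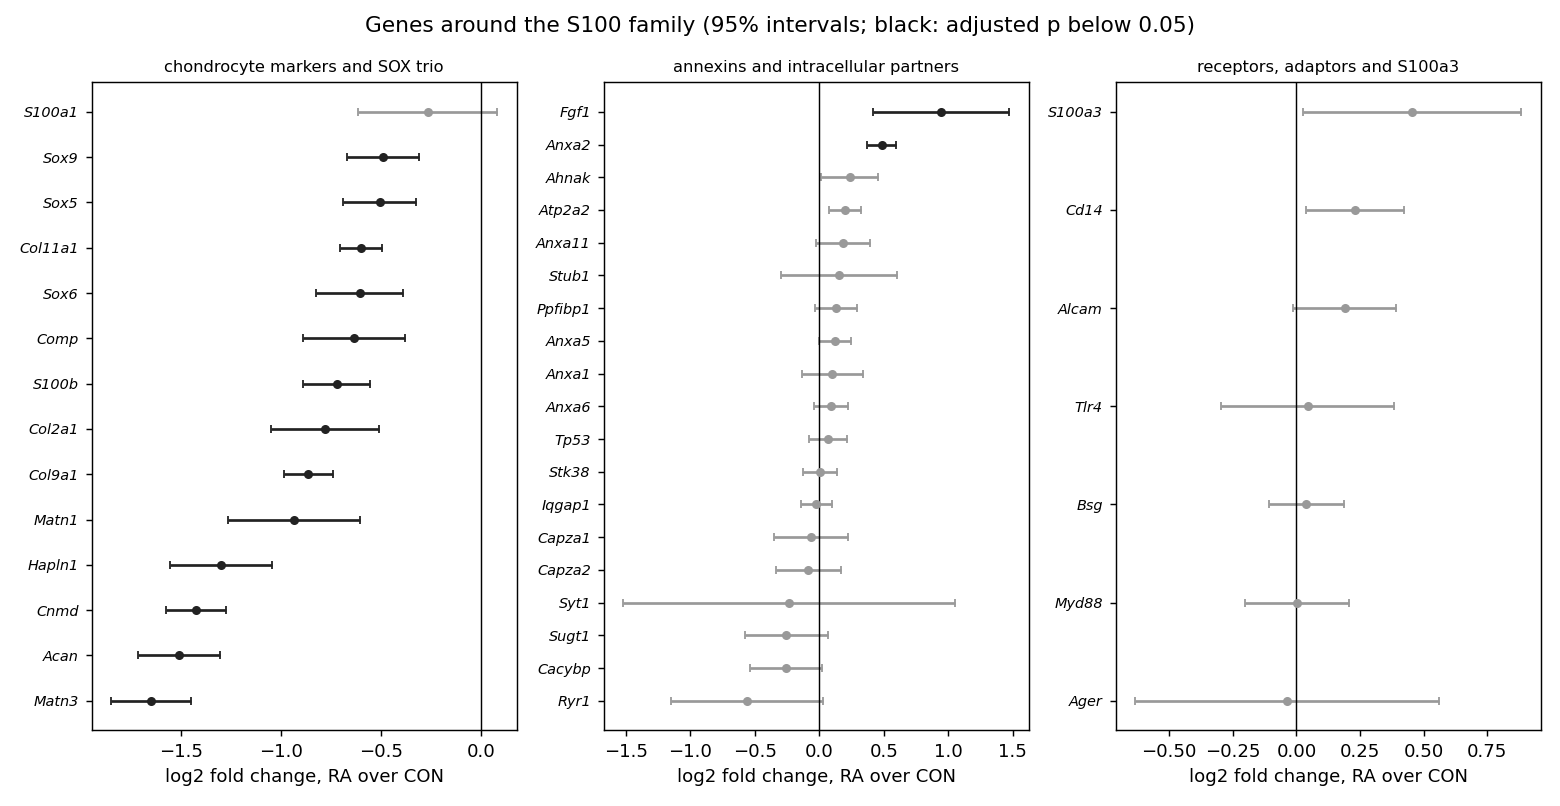
Log2 fold change, RA over CON (horizontal axes), with 95% intervals for chondrocyte markers and the SOX trio (left), annexins and intracellular partners (middle), and receptors, adaptors and S100a3 (right). Black genes had an adjusted p below 0.05 by edgeR's quasi-likelihood test; the left panel holds S100b at -0.72 among falling genes and S100a1 at -0.27, and in the middle panel Anxa2 (0.48) and Fgf1 (0.94) are black.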

How the data were processed

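Poly(A) RNA libraries of 3 CON and 3 RA samples were analysed. The authors deposited, per sample, the number of reads counted on each gene (raw counts, not normalized) and an FPKM value. The submitters' processing notes list HISAT2, HTSeq 0.13.5 and the build Rnor_6.0, while strand use and the handling of shared reads are not given in the sources used here. The deposited FPKM are the counts divided by gene length and by the sample's total count. The study describes the 3 samples of each group as independent. Whether each came from its own animal or from a separate culture is not given, so p-values measure the spread between these samples.

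Counts were filtered with filterByExpr (minimum count 10, leaving 13438 of 18923 genes), scaled by TMM and tested with edgeR 4.0.16 (glmQLFit, glmQLFTest, R 4.3.3), without covariates, with Benjamini-Hochberg adjustment over all genes tested. Standard errors were derived from the F statistic. A symbol with several identifiers was represented by that with the highest mean count. Ratios were tested by exact permutation. Alternatives used DESeq2 1.42.0, limma 3.58.1 on log2(FPKM + 0.1) and log2(FPKM + 1), other scalings, no filter, a replicate block and each sample left out. The fits were tested on simulated data. Named were all members, the DEGs of each gene list, every measured gene of lists of up to 11 genes and the 3 genes most like S100b; others are marked, or accompany a member as its partner or a marker. The members and lists were chosen with earlier results of these data known. Promoter windows are from RefSeq (GRCr8) and no coordinates were joined to the counts.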

Additional observations from a re-analysis of the deposited data

How the results depend on the processing

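The number of DEGs among all genes was 667, and with each sample left out it ran from 480 to 755. It was 434 by limma on log2(FPKM + 1), 1319 with no fold threshold and 1017 by unadjusted p and fold. Of the 8 S100 members 1, S100b, was a DEG under every alternative tried, and 3 passed with no fold threshold. The number with an adjusted p below 0.05 was 3, 5 by DESeq2, which added S100a6 and S100a16, and from 1 to 5 with a sample left out. Whether the replicate numbers of the labels pair the samples is not given. The deviations of same-numbered samples from their group means correlated at 0.093, -0.012 and 0.012 over 13438 genes. Those of differently numbered samples correlated at -0.12 to 0.11. With 3 samples per group mean, such values cannot decide whether samples were paired. With the replicate block 684 genes and 1 S100 member were DEGs, and S100a16 passed at 0.41 (adjusted p = 0.0187, edgeR), making 4 members that passed.

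Signs turned for values near 0. With a sample left out, log2 fold changes ran from -0.20 to 0.032 for S100a11, -0.22 to 0.20 for Ager, -0.097 to 0.22 for Tlr4, -0.050 to 0.078 for Myd88 and -0.015 to 0.078 for Bsg. Without CON sample 1, S100a11 was at 0.032, Myd88 at -0.036 and Bsg at -0.015. Without CON sample 2, Myd88 was at -0.036. Without CON sample 3, S100a13 was at -0.023, Ager at 0.20 and Tlr4 at -0.097. Without RA sample 1, Ager was at 0.017, and without RA sample 2, S100a13 was at -0.031 and Myd88 at -0.050. In limma fits Ager was at 0.014 and 0.00014. Of 429 comparisons of 33 named genes with an alternative, 371 kept their sign and their side of an adjusted p of 0.05, whatever the fold, 30 no longer passed at that p, 16 newly passed and 12 changed sign; the cause was not tested. The fold threshold was not part of this count: Sox6 without RA sample 1 (-0.52) and by limma on log2(FPKM + 1) (-0.51), and Vsnl1 by the latter (-0.36), passed but were under it. S100a1 and S100a13, with 109 to 216 reads per sample, have the widest intervals of the members.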
